A study of Rattus norvegicus with 12 samples.

Results

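Growth arrest and p53 target genes were followed in rat ventral midbrain cultures after a period of depolarization. The genes asked for were Cdkn1a, Mdm2, Ccng1, Ccng2, Gadd45a, Gadd45b, Gadd45g and Btg2, 8 in all. Members were all probe sets of a single-colour Affymetrix rat array whose only platform gene symbol was one of these names. This gave 9 probe sets of 7 genes among 15866 probe sets tested, with 2 probe sets each for Cdkn1a and Mdm2 and 1 for each of the others. No probe set carried Btg2 as its only symbol, and that gene was not analysed here. The rule uses gene names and no measured value, but the genes were chosen with earlier results of these data known.

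All 12 samples were cultures of ventral midbrain cells from CD1 rat embryos at day 12, grown for 9 days. During the first 6 days the medium held bFGF, a fibroblast growth factor, at 20 ng/ml and SHH, the patterning protein Sonic hedgehog, at 50 ng/ml, and for the last 3 days neither. Depolarized cultures received 56 mM KCl for 2 h, the KCl medium was then replaced, and RNA was taken 30 min or 2 h later. Control cultures were kept in control medium for matching times, 2 h plus 30 min or 2 h plus a further 2 h. Each of the 4 groups held 3 arrays, numbered 1 to 3 for the 30 min collection and 4 to 6 for the later one. Embryos of 4 rats were mixed into 3 pools, each treated on its own, and each RNA sample combined duplicate cultures, so every array reports pooled embryos and the spread between arrays is not a spread between animals. One preparation for both collection times is not stated in the labels, so collection time and preparation cannot be told apart.

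These genes are known for slowing the cell cycle and for answering stress. The transcription factor p53 activates Cdkn1a, whose protein p21 inhibits cyclin-dependent kinases, and Mdm2, whose protein is the ubiquitin ligase that marks p53 for destruction and so closes a feedback loop. Ccng1 and Ccng2 encode cyclins G1 and G2, unconventional cyclins linked to growth arrest, the first a classic p53 target and the second a known target of FOXO factors. The GADD45 genes encode small stress-induced proteins that bind p21, the replication clamp PCNA and the kinase MAP3K4, upstream of p38 and JNK. In neurons Gadd45b is also known as an activity-induced gene.

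The 250 bases upstream of each start site, from RefSeq promoter sequences on build GRCr8, were found for 7 of 7 measured members. They are shown for the members with a match to the p53 half-site, and for Ccng2, whose response changed most between collection times. Capitals mark matches on either strand to the p53 half-site (10 bases, searched by its consensus), to the CRE half-site TGACG, to the CRE TGACGTCA, which contains that half-site, to the FOXO core GTAAACA and to the CArG box. The windows are Cdkn1a (chr20:7150682-7150931, plus strand), Ccng1 (chr10:25684877-25685126, minus strand), Gadd45a (chr4:97486800-97487049, minus strand) and Ccng2 (chr14:15097191-15097440, minus strand), each printed 5′ to 3′ along its gene.
Cdkn1a: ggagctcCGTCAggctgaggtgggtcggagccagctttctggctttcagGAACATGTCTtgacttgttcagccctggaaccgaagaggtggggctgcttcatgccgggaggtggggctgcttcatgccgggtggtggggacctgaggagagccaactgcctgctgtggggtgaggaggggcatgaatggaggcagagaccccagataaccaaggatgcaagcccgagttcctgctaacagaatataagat
Ccng1: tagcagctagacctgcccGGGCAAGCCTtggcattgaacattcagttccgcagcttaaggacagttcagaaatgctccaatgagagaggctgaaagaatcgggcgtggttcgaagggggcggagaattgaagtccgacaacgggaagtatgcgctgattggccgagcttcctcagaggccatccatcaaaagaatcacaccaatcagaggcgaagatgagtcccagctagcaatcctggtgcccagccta
Gadd45a: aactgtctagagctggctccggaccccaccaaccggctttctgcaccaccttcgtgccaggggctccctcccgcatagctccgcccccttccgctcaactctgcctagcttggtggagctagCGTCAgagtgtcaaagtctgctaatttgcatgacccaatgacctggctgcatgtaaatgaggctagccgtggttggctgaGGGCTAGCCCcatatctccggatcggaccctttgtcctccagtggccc
Ccng2: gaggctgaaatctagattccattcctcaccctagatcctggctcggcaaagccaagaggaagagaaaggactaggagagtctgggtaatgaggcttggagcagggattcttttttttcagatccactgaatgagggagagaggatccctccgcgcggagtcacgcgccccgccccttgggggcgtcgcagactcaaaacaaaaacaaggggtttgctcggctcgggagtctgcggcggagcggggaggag
A p53 half-site stood in the windows of 3 of 7 members, GAACATGTCT in Cdkn1a, GGGCAAGCCT in Ccng1 and GGGCTAGCCC in Gadd45a, and in 6.64% of all 33465 windows of this length. The CRE half-site was found in 3 of 7 members (Cdkn1a, Mdm2 and Gadd45a) and in 18.2% of all windows. A FOXO core was found in 1 member, Mdm2, and in 3.22% of all windows. Neither the full CRE (1.59% of all windows) nor the CArG box (1.5%) was found in any of the 7. The Ccng2 window held none of these letters. Such matches describe the letters of these windows only. The best known p53 sites of Mdm2 and Gadd45a lie in introns, outside them.

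Values below are log2 expression summaries made by the authors with RMA, on which a difference of 1 is a 2-fold change. Differences were tested with limma over all 15866 probe sets, with p-values adjusted by the Benjamini-Hochberg method and called below 0.05. Every adjusted p below comes from this fit. Among all probe sets 24.0% were called at 30 min (10.8% higher and 13.1% lower) and 25.2% at 2 h (9.51% higher and 15.7% lower), with median differences of 0.01 at 30 min and essentially none at 2 h. The share of calls that were higher moved with scaling, from 45.2% to 58.9% at 30 min and from 37.7% to 51.4% at 2 h after median centring. The activity-induced gene Fos, a check of the treatment, was 16.7-fold higher at 30 min and 10.5-fold higher at 2 h at 1 of its 2 probe sets, while the other differed by 0.10 (adjusted p = 0.291) and 0.05 (adjusted p = 0.61). Across probe sets, within-group correlations between arrays were 0.9957 to 0.9979.

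Of the 7 member genes, each taken at its brightest probe set, 5 were called higher and 0 lower 30 min after KCl, against a background of 10.8% of probe sets called higher. The 5 called genes were Mdm2, Ccng2, Gadd45a, Gadd45b and Gadd45g, and the median difference of the 7 genes was 0.66. By limma's unadjusted p below 0.05 the counts were 6 and 0, with Cdkn1a added. By 2 h, 3 were called higher (Cdkn1a, Mdm2 and Gadd45b; background 9.51%) and 1 lower (Ccng2; background 15.7%), and the median was 0.10. The response itself differed between collection times in 4 of 7 genes, larger at 2 h for Cdkn1a (6.16% of all probe sets were called that way) and smaller for Ccng2, Gadd45a and Gadd45g (6.79%). The arrays of the groups did not overlap in 6 of 7 genes at 30 min, all higher (17.9% of all probe sets were so separated upward, 18.9% downward and 36.8% either way). At 2 h they did not overlap in 3 genes that were higher (15.4%) and 1 that was lower (22.1%), beside 37.5% either way. Ccng1 was called at neither time. In bulk RNA of this kind, fewer cells of a type and less RNA per cell cannot be told apart.

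**Figure D1:**
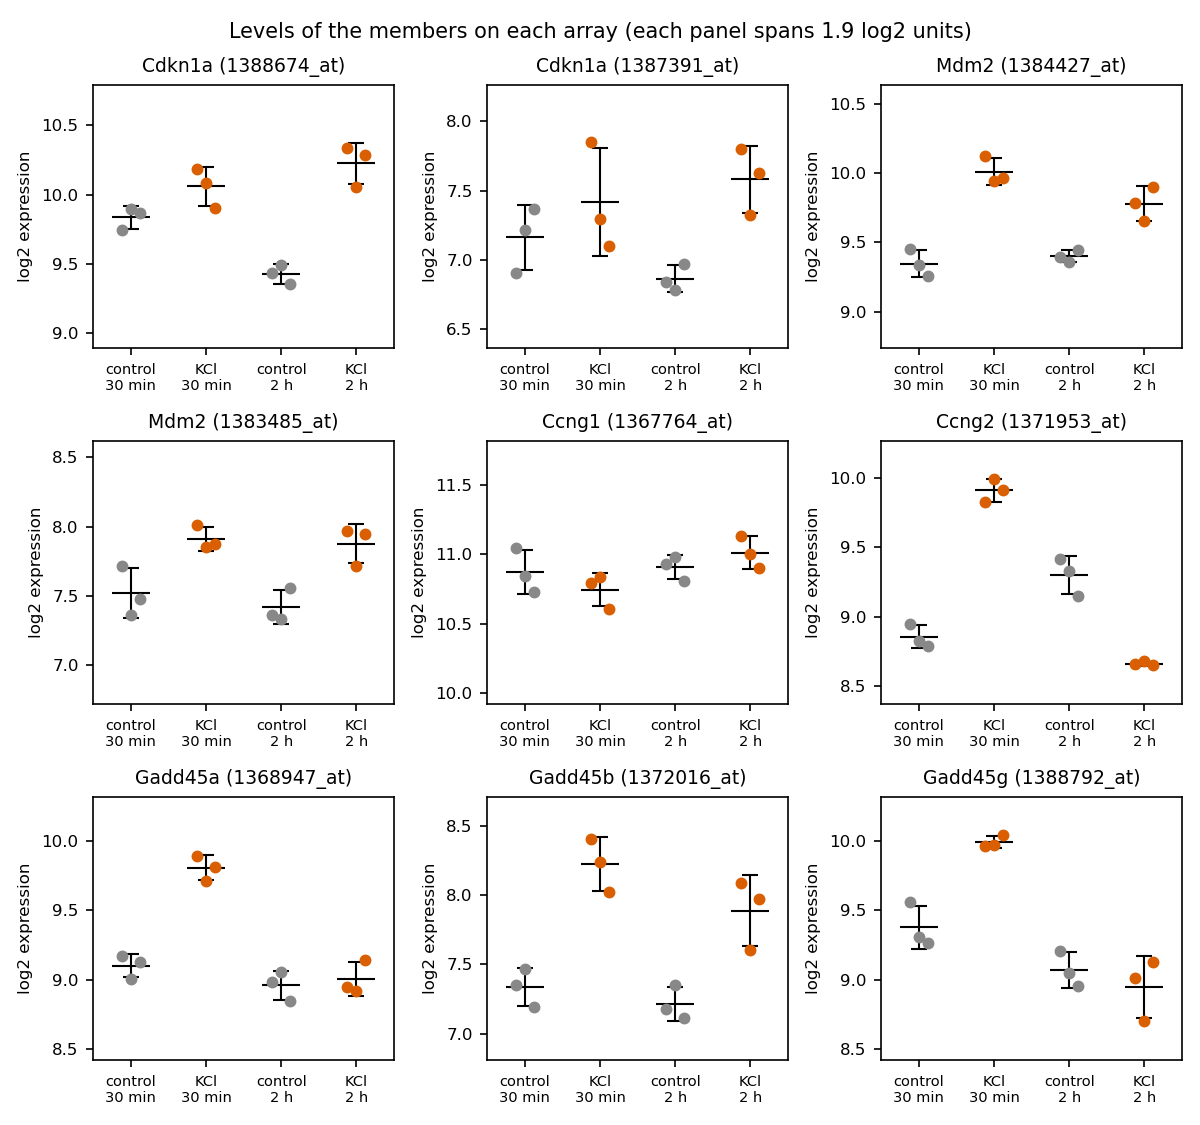
Log2 expression of the 9 member probe sets on each of the 12 arrays, by group, with 1 point per array and black bars for the mean and SD of 3 arrays; every panel spans the same range of log2 units. Ccng2 was highest in depolarized cultures at 30 min (9.83 to 9.99) and lowest in depolarized cultures at 2 h (8.65 to 8.68).

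Cdkn1a, the p21 gene, was called higher at 2 h and not at 30 min. At its brighter probe set (1388674_at) the 2 h controls read 9.43, 9.49 and 9.35 log2 units and the 2 h depolarized arrays 10.33, 10.06 and 10.28. The groups lay wholly apart, and the depolarized arrays at 2 h were also above every control at 30 min (9.74, 9.90 and 9.87). The difference at 2 h was 0.80 (SE 0.09, 1.74-fold, adjusted p = 1.05e-05). At 30 min the depolarized arrays read 10.19, 10.09 and 9.91, above their controls by 0.22 (SE 0.09, adjusted p = 0.0727), which did not pass. That difference did pass after median centring (0.27, adjusted p = 0.0232), with array weights (0.22, adjusted p = 0.0259), without depolarized replicate 3 at 30 min (0.30, adjusted p = 0.0238) and without depolarized replicate 5 at 2 h (adjusted p = 0.0442). The response was larger at 2 h than at 30 min by 0.57 (SE 0.12, adjusted p = 0.00461). A rise at 2 h together with such a larger response was called in 2.75% of all probe sets and in 1 member gene, Cdkn1a.

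The level of Cdkn1a also differed between the controls. Control cultures read 0.41 lower at 2 h than at 30 min (a difference of -0.41, SE 0.09, adjusted p = 0.00149), while depolarized cultures differed between collection times by 0.16 (SE 0.09, adjusted p = 0.137). The latter passed with array weights (0.19, adjusted p = 0.0475) and without depolarized replicate 5 at 2 h (0.25, adjusted p = 0.0328), and was 0.088 without depolarized replicate 3 at 30 min. The order of the levels was depolarized at 2 h, depolarized at 30 min, control at 30 min and control at 2 h, and only the first neighbours in that order had overlapping arrays. The dimmer Cdkn1a probe set (1387391_at) kept the same order, with all neighbours overlapping. Its controls differed between the times by -0.30 (SE 0.16, adjusted p = 0.165), which passed in a fit of only the arrays compared (adjusted p = 0.0385). This probe set read 6.84, 6.78 and 6.98 in the 2 h controls against 7.80, 7.32 and 7.62 in depolarized cultures, a rise of 0.72 (SE 0.16, adjusted p = 0.00394). At 30 min it differed by 0.25 (SE 0.16, adjusted p = 0.326), where depolarized replicate 1 stood high at 7.85 against 7.30 and 7.10. Its response difference was 0.46 (adjusted p = 0.221). It passed with array weights (0.65, adjusted p = 0.0323) and without that array (0.68, adjusted p = 0.0216), and was 0.31 without depolarized replicate 3 at 30 min (adjusted p = 0.464).

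Mdm2, the ligase gene of the p53 feedback loop, rose at both collection times and at both of its probe sets. The brighter one (1384427_at) read 9.45, 9.33 and 9.26 in 30 min controls and 10.12, 9.94 and 9.97 after KCl, and the rise was 0.66 (SE 0.08, 1.58-fold, adjusted p = 7.64e-06). Controls at 2 h read 9.40, 9.36 and 9.45 and depolarized arrays 9.79, 9.65 and 9.90, a rise of 0.38 (SE 0.08, 1.30-fold, adjusted p = 0.00172). No depolarized array overlapped a control at either time, and the control level itself differed by only 0.05 between times (adjusted p = 0.606). The smaller response at 2 h was not a called difference (-0.28, SE 0.11, adjusted p = 0.102). The dimmer probe set (1383485_at) rose by 0.39 at 30 min (SE 0.10, adjusted p = 0.00596) and by 0.46 at 2 h (SE 0.10, adjusted p = 0.0021). There the arrays read 7.72, 7.37 and 7.48 against 8.01, 7.85 and 7.88 at 30 min, and 7.36, 7.33 and 7.56 against 7.97, 7.72 and 7.95 at 2 h. Being higher at both times was a pattern of 3.79% of all probe sets, and it held for Mdm2 and Gadd45b.

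The cyclin G genes parted. Ccng2 (1371953_at) read 8.95, 8.83 and 8.79 in the 30 min controls and 9.83, 9.99 and 9.92 after KCl, a rise of 1.06 (SE 0.07, 2.08-fold, adjusted p = 4.88e-08). At 2 h the direction had turned. Controls read 9.42, 9.33 and 9.15 and depolarized arrays 8.66, 8.68 and 8.65, so that Ccng2 fell by 0.64 (SE 0.07, 1.56-fold lower, adjusted p = 2.09e-05). The depolarized arrays at 2 h lay below every control of both collection times.

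The response of Ccng2 at 2 h minus that at 30 min was -1.70 (SE 0.11, adjusted p = 1.04e-07), the 6th most negative of the 15866 probe sets. Called higher at 30 min and lower at 2 h were 106 probe sets in all, 0.668%, and Ccng2 was the one member among them. Its control level differed too, 0.45 higher at 2 h than at 30 min (SE 0.07, adjusted p = 0.000228), while depolarized cultures fell by 1.25 between the times (SE 0.07, adjusted p = 9.82e-09). The 4 group levels were all apart from their neighbours, in the order depolarized at 30 min, control at 2 h, control at 30 min, depolarized at 2 h. Leaving out any single array kept the rise between 1.02 and 1.10 and the 2 h difference between -0.71 and -0.58.

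Ccng1 (1367764_at) gave no called response. It read 11.05, 10.85 and 10.73 in controls and 10.79, 10.84 and 10.61 in depolarized cultures at 30 min, a difference of -0.13 (95% confidence interval -0.32 to 0.06, adjusted p = 0.37). At 2 h it read 10.93, 10.98 and 10.81 against 11.13, 11.00 and 10.90, a difference of 0.10 (95% confidence interval -0.09 to 0.29, adjusted p = 0.452). The arrays overlapped at both times. Depolarized cultures read 0.27 higher at 2 h than at 30 min (SE 0.09, adjusted p = 0.0256), a call lost without depolarized replicate 3 at 30 min (adjusted p = 0.112) or depolarized replicate 4 at 2 h (adjusted p = 0.115).

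**Figure D2:**
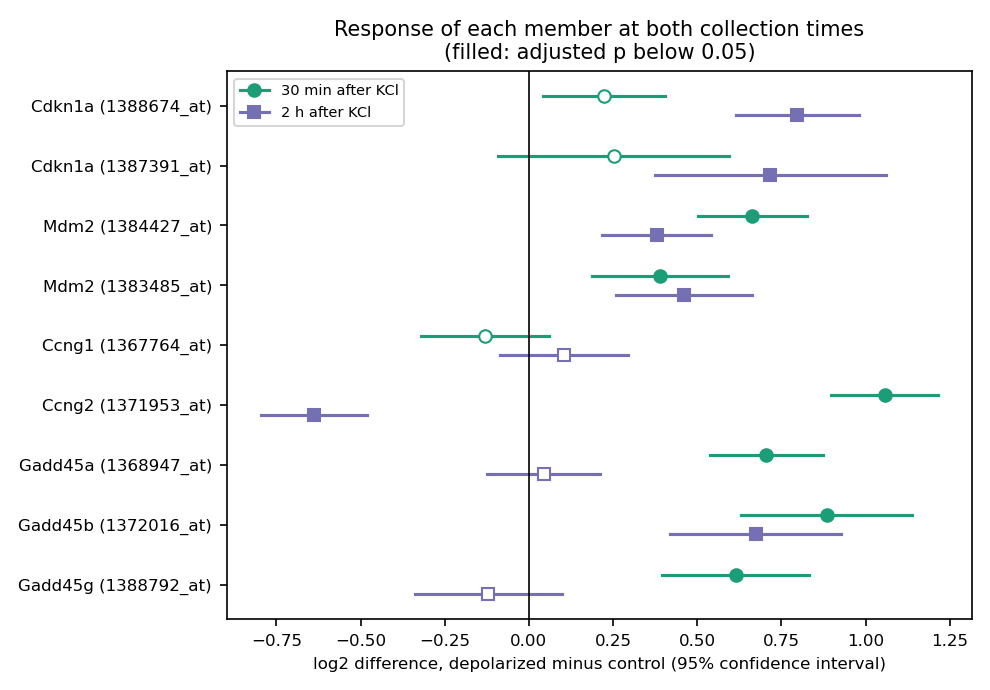
Log2 difference between depolarized and control cultures for each member probe set, with its 95% confidence interval from the limma fit, at 30 min (circles) and 2 h (squares); filled symbols passed an adjusted p of 0.05. The filled symbols of Ccng2 lie at 1.06 and -0.64 on opposite sides of 0, whereas Mdm2 and Gadd45b have filled symbols to the right at both times.

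All 3 GADD45 genes rose at 30 min, and Gadd45b was the one called at 2 h as well. Gadd45a (1368947_at), the family member known as a p53 target, read 9.17, 9.01 and 9.13 in controls and 9.89, 9.71 and 9.81 after KCl. That was a rise of 0.71 (SE 0.08, 1.63-fold, adjusted p = 5.95e-06), with the groups apart. By 2 h controls read 8.98, 9.05 and 8.85 and depolarized arrays 8.95, 8.92 and 9.15, which overlapped and differed by 0.04 (95% confidence interval -0.12 to 0.21, adjusted p = 0.746). The response was smaller at 2 h by a called margin (-0.66, SE 0.11, adjusted p = 0.000895).

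Gadd45g (1388792_at), a family member also known from neuronal differentiation, was likewise called at 30 min and not at 2 h. It read 9.56, 9.31 and 9.27 in the 30 min controls and 9.96, 9.97 and 10.04 after KCl, a rise of 0.61 (SE 0.10, 1.53-fold, adjusted p = 0.000296). At 2 h controls read 9.20, 9.05 and 8.95 and depolarized arrays 9.02, 8.70 and 9.13, overlapping, with a difference of -0.12 (95% confidence interval -0.34 to 0.10, adjusted p = 0.448). The response difference was -0.73 (SE 0.15, adjusted p = 0.00292). Its controls read lower at 2 h than at 30 min (-0.31, SE 0.10, adjusted p = 0.029). That call was lost without control replicate 1 at 30 min (adjusted p = 0.136) and without control replicate 5 (adjusted p = 0.0767) or 6 (adjusted p = 0.103) at 2 h.

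Gadd45b (1372016_at) had a mean level of 7.66, at percentile 37.9 of all probe sets, against 65.5 for Gadd45a and 67.9 for Gadd45g. The filter on the dimmest 50% left Gadd45b out. Controls read 7.35, 7.47 and 7.19 at 30 min and depolarized arrays 8.41, 8.24 and 8.02, a rise of 0.88 (SE 0.12, 1.85-fold, adjusted p = 3.95e-05). At 2 h the rise was 0.67 (SE 0.12, 1.60-fold, adjusted p = 0.000681), from 7.17, 7.35 and 7.11 to 8.09, 7.60 and 7.97. The groups were apart at both times, with depolarized replicate 5 the lowest of its group at 2 h. The response difference of Gadd45b was -0.21 (SE 0.17, adjusted p = 0.512). Whether it differed from those of Gadd45a and Gadd45g was not tested. A rise at 30 min with a smaller response at 2 h was called in Ccng2, Gadd45a and Gadd45g, and in 3.96% of all probe sets.

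Several members differed between the collection times within a treatment, where time and preparation cannot be told apart. Of all probe sets 35.3% were called between the controls and 41.0% between the depolarized cultures. Between the controls, 1 of 7 genes was higher at 2 h (Ccng2, background 18.1%) and 2 were lower (Cdkn1a at its brighter probe set, and Gadd45g, background 17.2%). Between the depolarized cultures, 1 was higher at 2 h (Ccng1; background 19.2%) and 5 were lower (background 21.8%), with Gadd45g falling by 1.04, Gadd45a falling by 0.80, Gadd45b falling by 0.34 and Mdm2 falling by 0.23 beside Ccng2. The Gadd45b fall (adjusted p = 0.0346) lost its call without depolarized replicate 1 or 2 at 30 min or replicate 5 at 2 h (adjusted p from 0.079 to 0.177), with loess correction (adjusted p = 0.0914) and in a fit of only the arrays compared (adjusted p = 0.0607). Without replicate 5 at 2 h it was -0.19. The fall of Mdm2 (adjusted p = 0.0243) lost its call without depolarized replicate 1 at 30 min or replicate 4 or 5 at 2 h (adjusted p from 0.0533 to 0.111), and with the mean of its probe sets, where it was -0.13 (adjusted p = 0.208).

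Markers of several cell types differed between collection times as well. Over all probe sets 18.1% were called higher and 17.2% lower in the 2 h controls than in those at 30 min. All 8 measured neuron markers, among them Map2 and Gap43, were higher in controls at 2 h than at 30 min, and the log2 of their summed signal ranged from 14.05 to 14.27 in the 30 min controls, 14.22 to 14.34 in 30 min depolarized cultures, 15.30 to 15.31 in the 2 h controls and 15.15 to 15.30 in the 2 h depolarized ones. Of 7 dopaminergic markers 5 were higher in the 2 h controls, and their summed signal went from 10.54 to 10.77 in the 30 min controls to 11.46 to 11.60. Of 8 progenitor and proliferation markers 5 were lower and 1 higher (14.34 to 14.50 against 14.13 to 14.28), and of 6 oligodendrocyte lineage markers 5 were lower (12.62 to 12.91 against 11.25 to 11.49). Among the latter Olig1, the brightest, differed by -2.45, and Cspg4, with the next largest difference, by -0.40. In the same comparison of controls 1 of 8 astrocyte markers was higher and 3 were lower, and 1 of 5 endothelial and mural markers was higher and 1 lower. For fibroblast markers 0 of 6 were higher and 1 was lower, and 0 of 7 microglia markers were called by limma. The part of these shifts in the control differences of Ccng2, Cdkn1a and Gadd45g was not tested. Between depolarized and control cultures at 30 min limma called 1 of 8 neuron, 2 of 7 dopaminergic, 0 of 8 progenitor, 1 of 6 oligodendrocyte lineage, 0 of 8 astrocyte, 1 of 7 microglia, 1 of 5 endothelial and mural and 1 of 6 fibroblast markers. At 2 h the calls were 2, 3, 4, 1, 0, 0, 1 and 1 in the same order. Over all probe sets 24.0% were called at 30 min and 25.2% at 2 h. Of the 4 progenitor calls at 2 h, 1 was higher (Sox2) and 3 were lower (Hes5, Pax6 and Top2a). Every neuron, dopaminergic and microglia call was higher, and every oligodendrocyte lineage, endothelial and mural and fibroblast call was lower. At an unadjusted p below 0.05, 1 progenitor marker passed at 30 min, and 0 astrocyte markers at either time and 0 microglia markers at 2 h did. Pdgfra, listed under both oligodendrocyte lineage and fibroblast, gave the call of each list at both times. The part of these markers in the members' responses was not tested. Mean levels of the microglia markers ranged from 5.54 (Ptprc) to 8.14 (Aif1). Those of the endothelial and mural markers ranged from 5.46 (Pecam1) to 8.17 (Pdgfrb), and those of the fibroblast markers from 10.21 (Pdgfra) to 12.95 (Col3a1). The deposited values come without detection calls.

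Other genes of the same pathways went in both directions. Of 32 listed p53 pathway genes 16 had a probe set, and at 30 min 3 rose, 5 fell and 8 did not pass, with a median of 0.00 beside 0.01 over all probe sets. At 2 h 2 rose, 2 fell and 12 did not pass (median -0.04). The background for this list and those below was 10.8% of all probe sets called higher and 13.1% lower at 30 min. At 2 h it was 9.51% higher and 15.7% lower. Plk2, a polo-like kinase gene that is also activity-induced, rose by 0.92 at 30 min (SE 0.08, adjusted p = 3.79e-07) and differed by 0.14 at 2 h (adjusted p = 0.21). Cop1, whose protein is another ubiquitin ligase for p53, rose by 0.55 and 0.30 (adjusted p = 4.19e-05 and 0.00783). Sesn1, the stress-induced sestrin gene, fell by 1.01 and then by 0.39 (adjusted p = 1.09e-06 and 0.00648). Xpc, a DNA damage recognition gene, fell by 0.66 at 30 min (adjusted p = 1.54e-06) and differed by -0.06 at 2 h (adjusted p = 0.581).

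Among 10 measured CDK inhibitors and BTG/TOB genes, 3 rose and 1 fell at 30 min, and 2 rose and 2 fell at 2 h (medians 0.10 and -0.03). The antiproliferative gene Btg3 rose by 0.34 at 30 min (adjusted p = 0.00309) and by 0.75 at 2 h (adjusted p = 6.43e-06), a response larger at 2 h by 0.41 (adjusted p = 0.0183), as for Cdkn1a. Btg1, of the same family, turned direction, with a rise of 0.23 at 30 min (adjusted p = 0.0166) and a fall at 2 h (-0.37, adjusted p = 0.000719). Tob2 rose by 0.47 at 30 min (adjusted p = 0.000255) and differed by -0.15 at 2 h (adjusted p = 0.177). The INK4 inhibitor gene Cdkn2b differed by 0.19 at 30 min (adjusted p = 0.385) and rose by 0.61 at 2 h (adjusted p = 0.00366), although its arrays overlapped there.

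Of 13 cyclins, kinases and p21 partners, mostly of the G1/S step, 2 rose and 4 fell at each collection time (medians 0.02 and -0.03). Ccne2, cyclin E2, fell by 0.51 at 30 min (adjusted p = 1.93e-05) and Ccne1 fell by 0.38 there and by 0.33 at 2 h (adjusted p = 0.000636 and 0.00263). Cdk4 fell by 0.22 and 0.31 (adjusted p = 0.0128 and 0.00135), whereas the cyclin gene Ccnd2 rose by 0.58 at 2 h (adjusted p = 0.000689). In controls, 10 of these 13 genes were lower at 2 h than at 30 min by limma and 0 were higher, or 1 at an unadjusted p below 0.05 (median -0.34). Over all probe sets 17.2% were lower there and 18.1% higher. Among the 10 were Cdk1 (-0.76) and Ccnb1 (-0.61), which the list held beside its G1/S genes. Ccnb1 was also counted among the progenitor and proliferation markers.

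Kinases of the p38 and JNK pathways, which are linked to GADD45 proteins, were counted next. Map3k4 was not among the 10 measured genes. Of 10 measured p38 and JNK pathway genes 0 were called at 30 min by limma (3 at an unadjusted p below 0.05, all higher), and 2 rose and 2 fell at 2 h, when 25.2% of all probe sets were called. Map2k6, the p38-activating kinase gene, fell by 0.73 at 2 h (adjusted p = 4.98e-06), and Map2k3, with a like role, rose by 0.33 (adjusted p = 0.0108). FOXO factors and targets went both ways: of 12 measured, 3 rose and 4 fell at 30 min, and 1 rose and 4 fell at 2 h. Irs2, an insulin receptor substrate gene, rose by 1.15 and 0.83 (adjusted p = 4.26e-07 and 2.4e-05). Cited2, a transcriptional coregulator gene, rose by 0.89 at 30 min (adjusted p = 2.23e-06) and differed by 0.05 at 2 h. Bcl2l11, which encodes the proapoptotic protein BIM, fell by 0.75 and 0.29 (adjusted p = 4.11e-06 and 0.0144), and Pik3ip1 fell by 0.69 and 0.34.

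**Figure D3:**
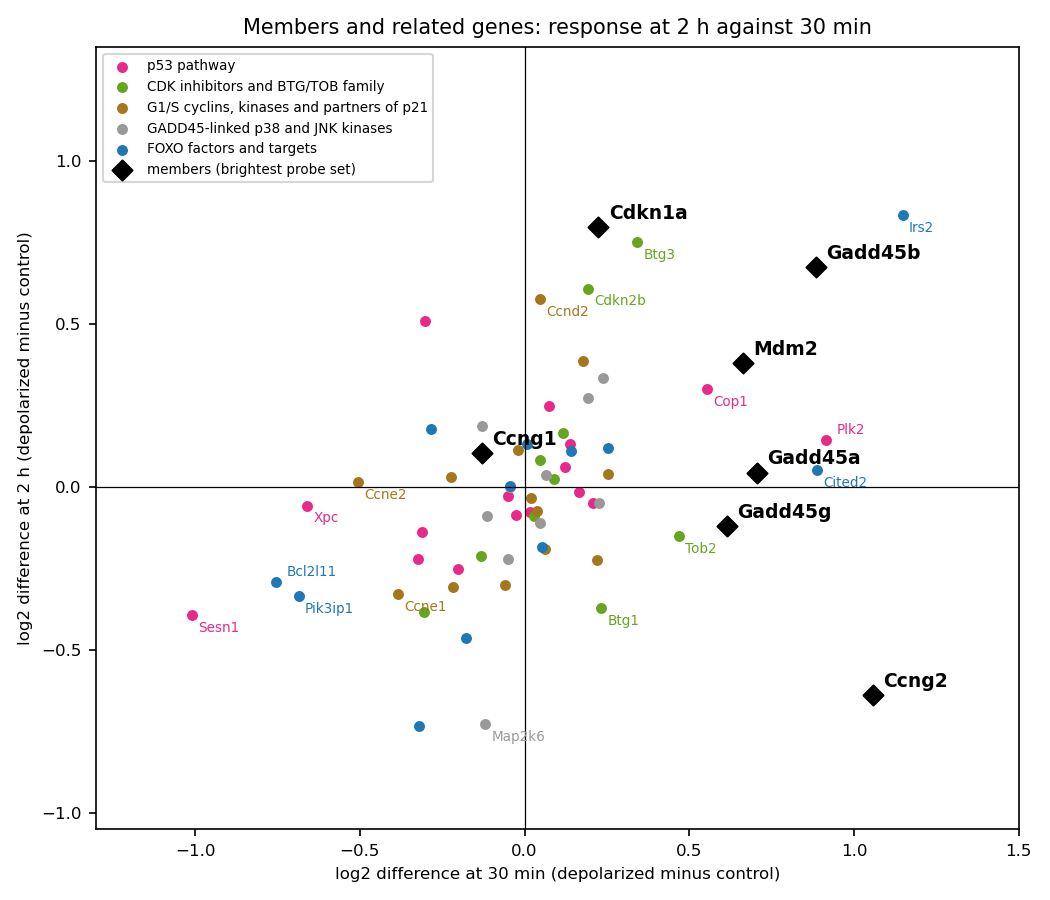
Log2 difference at 2 h against that at 30 min, depolarized minus control, for the 7 members at their brightest probe set (black diamonds) and the measured genes of 5 related lists (coloured points, the leading genes of each list named). Ccng2 lies at the lower right (1.06 and -0.64), and the related genes spread on both sides of 0 on each axis.

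The genes whose levels ran closest to each member were taken by the smallest root mean square difference of centred log2 values over the 12 arrays, which share the same 4 groups. For Ccng2 these were Taf5 (0.13), Cnot4 (0.15) and Ppp4r3b (0.16), against a median of 0.49 over all named probe sets. For Cdkn1a they were LOC100911534 (0.09), F2rl1 (0.10) and Itgb1 (0.11; median 0.34), and for Mdm2 they were Usp47 (0.06), Bmp2 (0.08) and Usp19 (0.09; median 0.31). Gadd45a ran closest to Ctrc (0.08), Rasl11b (0.10) and Nup98 (0.10; median 0.36). Gadd45g ran closest to Nup50 (0.10), Nipbl (0.13) and Dido1 (0.13; median 0.42). Gadd45b lay nearest to the stress-responsive genes Mafk (0.11), Rhob (0.12) and Sgk1 (0.13; median 0.45). Ccng1, the member with the flattest course, lay nearest to Brwd1, Zdhhc8 and P4ha2, at 0.08 to 0.09 (median 0.21). Its own root mean square about its mean was only 0.14, against 0.28 (Mdm2) to 0.49 (Ccng2) for the other members. No member was among the 3 genes closest to another member.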

How the data were processed

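The deposited table holds log2 expression values, which per the submitters' processing notes the authors obtained by RMA (version not given); the log2 scale was read from the values, 4.41 to 14.58. Of 15923 probe sets, 57 array controls were left out. The platform annotation, which can be old, gave 1 symbol for 12783, several for 312 and none for 2771. Member symbols matched current rat gene identifiers.

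All 12 arrays entered a single limma fit with a mean for each of the 4 groups (limma 3.58.1 in R 4.3.3, 8 residual degrees of freedom, empirical Bayes moderation, no replicate block), with two-sided p-values, Benjamini-Hochberg adjustment over 15866 probe sets and a threshold of 0.05. The 5 contrasts were both responses, their difference, and each treatment's difference between collection times. The model was tested on simulated data. SE and p-values measure the spread of pooled cultures. The number of arrays limits the precision.

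Members, gene lists and markers were chosen with earlier results of these data known. Genes with several probe sets were counted at the brightest. Named were all members, up to 4 genes per related list by smallest p over both responses, Fos as a check, and the 3 genes closest to each member with a called contrast. Single marker genes were picked with their values in view. The alternatives tried were 3 scalings (median, quantile, loess), filters on dim probe sets (25% and 50%), fits of only the arrays compared, a trended and robust prior, array weights, the replicate number as a block, a threshold of 0.01, probe set means, and each array left out. Motifs were searched in Python 3.11.15 in RefSeq promoter sequences.

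Correlations of deviations from the group means ranged from -0.32 to 0.24 for same-numbered control and depolarized arrays, and from -0.42 to 0.35 for unlike numbers. With 3 arrays in a group these values cannot show whether the numbers mark pairs. The main fit did not take the numbers as pairs, and a fit with the number as a block is given below.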

Additional observations from a re-analysis of the deposited data

Results flagged for a closer look

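The response to KCl differed between the collection times, by the test of the difference itself (limma, adjusted over all probe sets), in 4 member probe sets of 4 genes. For Ccng2 the response at 2 h minus that at 30 min was -1.70, for Gadd45g -0.73 and for Gadd45a -0.66. For Cdkn1a at its brighter probe set it was 0.57, in the opposite direction. The dimmer Cdkn1a probe set did not pass (0.46, adjusted p = 0.221). Groups of 3 arrays are too small for a test of single outlying arrays.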

How the results depend on the processing

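The counts of member genes called kept within 1.5 times in every alternative except 1: with a threshold of 0.01, the depolarized cultures differed between times in 3 genes in place of 6. That threshold also moved the calls over all probe sets from 4001 to 2410 at 2 h, from 2055 to 1085 for the response difference and from 5604 to 3712 between controls, and leaving out the dimmest 50% moved those between depolarized cultures from 6507 to 4269, with 7933 probe sets tested. With an array left out, calls among members ranged from 5 to 6 at 30 min, stayed at 4 at 2 h and at 4 for the response difference, and ranged from 2 to 3 between controls and 4 to 6 between depolarized cultures. Over all probe sets they ranged from 3135 to 3846, 2833 to 4226, 1624 to 2081, 4298 to 5928 and 5561 to 6619.

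With the replicate number as a block the calls were 5 members at 30 min, 4 at 2 h and 4 for the response difference, and 3524, 3617 and 1816 probe sets. The block changed no member's call. No block fit was possible for the contrasts between collection times, whose groups share no number, and no fit of only the arrays compared exists for the response difference, which uses all.

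Of 418 probe set differences under the alternatives other than leaving out an array, 398 kept their direction and side of the threshold, 7 lost the call, 6 gained it and 7 turned sign. Of 540 with an array left out the numbers were 516, 11, 5 and 8. Each that turned sign was not called. Between controls these were Ccng1 with quantile normalization (-0.072), loess correction (-0.016) and leaving out an array (-0.038 to 0.12), and Mdm2 at its brighter probe set with quantile normalization (-0.014) and probe set means (-0.025). Between depolarized cultures the dimmer Mdm2 probe set turned with loess correction (0.028), with array weights (0.029) and without an array (-0.079 to 0.047). At 2 h Gadd45a (-0.027 to 0.09) and Gadd45g (-0.21 to 0.0031) turned without an array, and the response difference of the dimmer Mdm2 probe set turned with quantile normalization (-0.0006) and without an array (-0.029 to 0.15). The cause of these changes was not tested.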

Other observations

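Phlda3, a p53-induced inhibitor of AKT signalling, ran opposite to Ccng2. It fell by 0.30 at 30 min (SE 0.07, adjusted p = 0.00415 by limma) and rose by 0.51 at 2 h (SE 0.07, adjusted p = 8.36e-05), and the response differed between times by 0.81 (adjusted p = 5.75e-05). It was singled out after its values were seen. Such a fall followed by a rise was called in 112 probe sets, 0.706% of those tested, and in 0 members. Foxo3, a FOXO factor gene, fell by 0.32 at 30 min (adjusted p = 0.0173) and by 0.74 at 2 h (adjusted p = 3.79e-05), while Foxo4 rose by 0.25 at 30 min (adjusted p = 0.0136) and Foxo1 differed by -0.04 and 0.00 (adjusted p = 0.713 and 0.982). These were also chosen after their values were seen.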
